A study of Mus musculus with 24 samples.

Results

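The genes described here are 9 cardiac potassium channel genes, chosen by symbol as genes whose channels carry the repolarizing and resting currents of the heart: Kcnd2, Kcnd3, Kcnip2, Kcna5, Kcnh2, Kcnq1, Kcnj2, Kcnj3 and Kcnj11. All 9 were found among the 14912 genes of the table, 1 row each. RNA came from whole left ventricles of male wild-type C57BL/6J mice. The hypertensive-LVH group (left ventricular hypertrophy) received angiotensin II (ANG II) at 1500 ng/kg/min from a subcutaneous osmotic pump over 7 days, and the control group received saline. There were 12 samples of each group, numbered in the labels and taken as separate mice. The values are FPKM, the fragments of a gene normalized to the length of its transcript and to all mapped fragments of the sample. They had been shifted and scaled gene by gene within 4 sets, each joining 3 control and 3 hypertensive-LVH samples by number (1 to 3, 4 to 6, 7 to 9, or 10 to 12). For the 9 genes, a difference between the groups had been kept out of this step. The order of a control and a hypertensive-LVH sample within a set could therefore change.

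Potassium channels end the cardiac action potential by letting potassium leave the cell, and they hold the resting potential between beats. Voltage-gated channels open on depolarization. In the mouse ventricle, a fast transient outward current and slowly inactivating currents do most of this work. Inward rectifiers set the resting potential, and some of them are opened by acetylcholine or closed by ATP. Many channels need accessory subunits, which alter how many channels reach the membrane and how they gate. Smaller outward potassium currents in hypertrophied ventricular myocytes are a well known feature of cardiac electrical remodeling.

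All 9 genes had lower fitted levels in the hypertensive-LVH group, and 5 of them passed the test: Kcnip2, Kcnh2, Kcnj2, Kcnj3 and Kcnj11. The test was limma on log2(FPKM + 1), and a gene was called when its Benjamini-Hochberg adjusted p over 14026 tested genes was under 0.05. Of all genes tested, 33.5% were called, 12.6% were called lower, and 36.2% had a fitted log2 fold change below 0. All of the 9 but Kcnd2 and Kcnd3 had a mean of at least 5 FPKM. Of all genes at that level, a split made after the values were seen, 17.7% were called lower and 40.1% had a fitted log2 fold change below 0. The direction of this background depends on the scaling, since quantile normalization between samples called 13.7% of all genes higher and 20.9% lower, with a median log2 fold change of -0.02, and all 9 genes were lower under it too. The median log2 fold change was -0.23 over the 9 genes and 0.05 over all genes tested. Of the 9, only Kcnj3 also passed the study's fold change threshold of 0.5 on the log2 scale, which 1.4% of all genes passed in the lower direction. The changes were modest. Changes of the group mean of the called genes ran from -16.1% for Kcnj2 to -32.9% for Kcnj3. The value of Kcnj3 rests on 1 sample, control 2, without which the change of its mean was -22.4% and its log2 fold change, -0.38, was not past 0.5 in size. The fit behind these calls held the group only, so its p values take no account of the earlier adjustment by set. With a term for the set of samples, 3 of the 9 genes were called, Kcnip2, Kcnh2 and Kcnj11, beside 27.9% of all genes tested.

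The voltage-gated group has Kcnd2 and Kcnd3, the pore subunits of the transient outward current, and Kcnip2, their accessory subunit KChIP2. Kcna5 encodes a pore subunit of a rapidly activating current, Kcnh2 that of the rapid delayed rectifier, and Kcnq1 that of the slow delayed rectifier. The inward rectifiers are Kcnj2, which carries the background current of the resting ventricle, Kcnj3, a subunit of the acetylcholine-activated channel best known from the atrium and the nodes, and Kcnj11, the pore of the ATP-sensitive channel of the sarcolemma. In the control group the order by median FPKM was Kcnip2, Kcnj11, Kcnh2, Kcnq1, Kcnj3, Kcna5, Kcnj2, Kcnd2 and Kcnd3, from 111.1 to 3.35 FPKM. FPKM is per length, but the shift and scale of each gene also enter these levels, so the order is that of the deposited values. Neighbouring genes in this order had overlapping ranges, except Kcnj11 above Kcnh2 and Kcna5 above Kcnj2. In the hypertensive-LVH group the order differed in 1 place, with Kcna5 (median 13.9 FPKM) above Kcnj3 (median 13.4 FPKM), and their ranges overlapped.

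**Figure D1:**
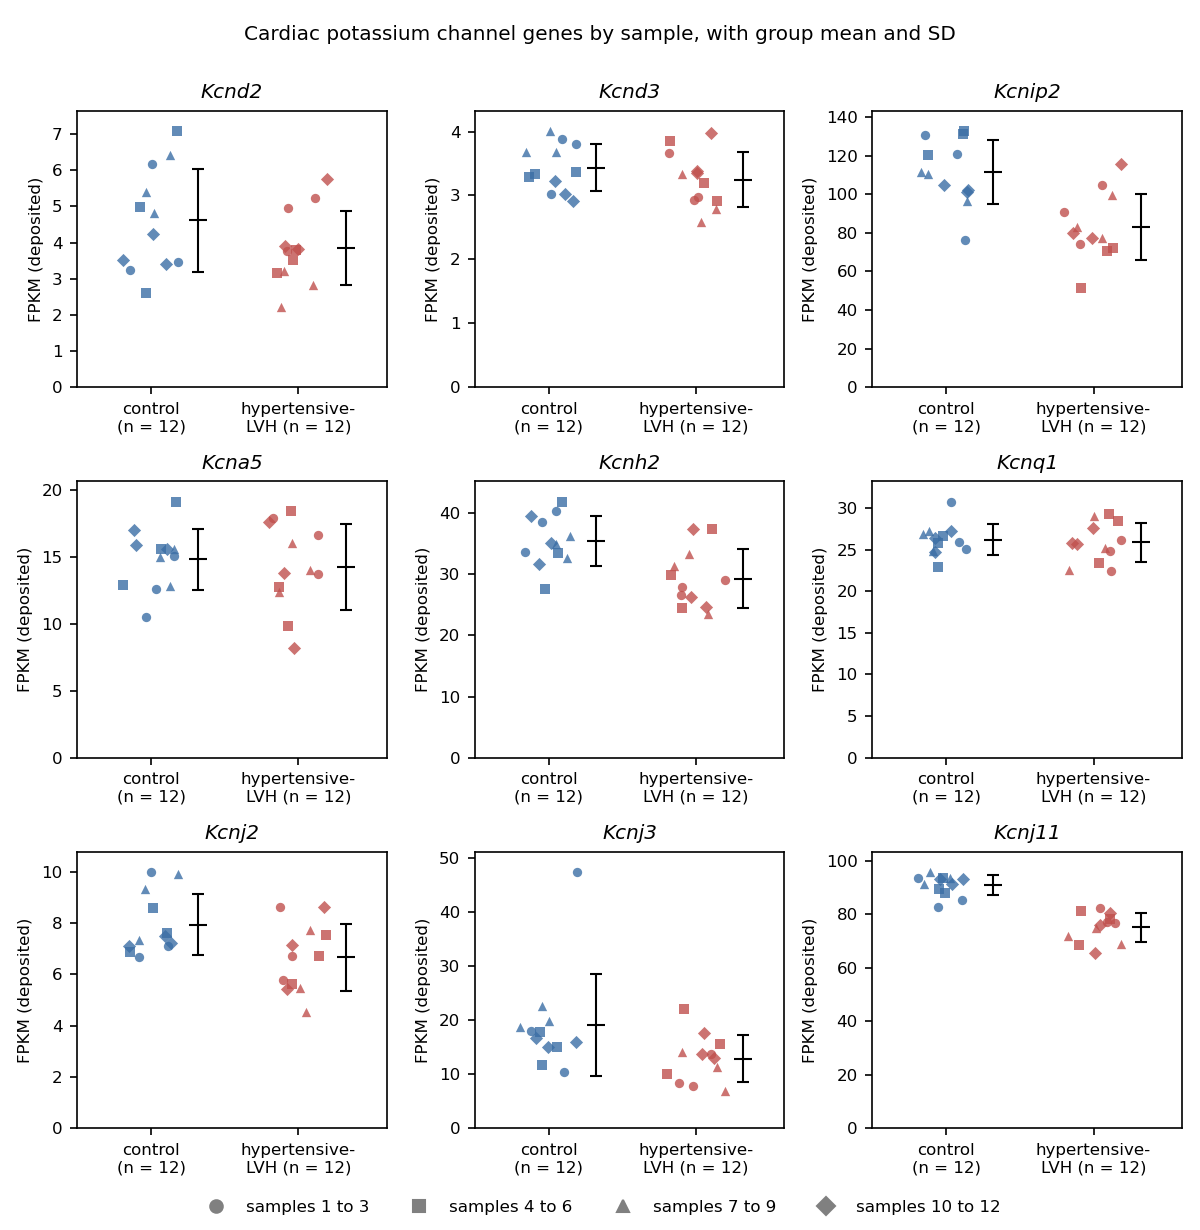
FPKM of each of the 9 genes in every sample (vertical axis from 0, deposited values), with control and hypertensive-LVH samples side by side, marker shapes for the 4 sets and bars for the group mean and SD. The groups do not overlap for Kcnj11 and overlap for the other 8 genes, and 1 control sample stands far above the rest for Kcnj3.

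The called genes Kcnip2, Kcnh2, Kcnj2 and Kcnj3 have an entry in the RefSeq promoter table (GRCm38.p6), which covers 7 of the 9. The 250 bases before their transcription start are printed here because these 4 genes passed the test in the same direction. Capitals mark 3 motifs, searched on both strands, so that a match on the other strand reads as the reverse complement of the letters given. The GC box was searched as GGGCGG. The second motif was the pentamer CCAAT, known as the CCAAT box. The third, the motif of the GATA factors, was searched as AGATAA and, in a second form that differs at the first base, as TGATAA. None of the motifs overlapped in these windows. The windows lie at chr19:45816064-45816313 on the minus strand for Kcnip2, chr5:24329592-24329841 on the minus strand for Kcnh2, chr11:111065914-111066163 on the plus strand for Kcnj2 and chr2:55435720-55435969 on the plus strand for Kcnj3. The Kcnh2 window precedes the start of a shorter transcript and lies in an intron of the longest one. The Kcnj3 window lies within an exon of Gm26794, a long noncoding RNA on the opposite strand.
Kcnip2: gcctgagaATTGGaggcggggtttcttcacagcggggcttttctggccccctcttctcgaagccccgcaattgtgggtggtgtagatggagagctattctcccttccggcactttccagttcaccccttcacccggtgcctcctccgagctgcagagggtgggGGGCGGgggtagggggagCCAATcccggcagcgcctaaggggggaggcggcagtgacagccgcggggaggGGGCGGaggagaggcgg
Kcnh2: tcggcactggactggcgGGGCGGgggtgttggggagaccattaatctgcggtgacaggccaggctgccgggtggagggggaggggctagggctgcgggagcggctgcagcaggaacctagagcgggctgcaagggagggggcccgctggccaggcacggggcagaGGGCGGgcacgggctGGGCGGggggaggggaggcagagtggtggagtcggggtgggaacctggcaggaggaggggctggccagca
Kcnj2: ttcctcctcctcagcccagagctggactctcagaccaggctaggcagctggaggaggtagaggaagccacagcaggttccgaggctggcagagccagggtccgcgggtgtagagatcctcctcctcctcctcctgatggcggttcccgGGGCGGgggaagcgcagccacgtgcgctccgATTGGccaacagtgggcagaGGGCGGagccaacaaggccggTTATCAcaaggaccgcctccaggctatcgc
Kcnj3: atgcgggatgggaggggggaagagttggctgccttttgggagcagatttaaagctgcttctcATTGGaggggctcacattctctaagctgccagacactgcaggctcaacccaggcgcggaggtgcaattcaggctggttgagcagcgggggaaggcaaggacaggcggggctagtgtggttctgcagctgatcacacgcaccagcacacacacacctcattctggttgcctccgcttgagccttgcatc
The GC box, bound by Sp1, was found 2 times for Kcnip2, 3 times for Kcnh2, 2 times for Kcnj2 and 0 times for Kcnj3. It occurs in 32.7% of the 32851 promoters of the same length. A CCAAT box, present in 33.8% of them, was found 2 times for Kcnip2, 1 time for Kcnj2 and 1 time for Kcnj3. A GATA motif, present in 16.6%, was found 1 time for Kcnj2. The TATA box (TATAAA), present in 12.4%, was found in none of these 4 windows. GC content was 66.8% for Kcnip2, 73.6% for Kcnh2, 65.6% for Kcnj2 and 58.4% for Kcnj3, beside a median of 52.4% over all promoters. Among the genes that did not pass the test, the window of Kcnd2 held 1 GC box, and those of Kcnd3 and Kcna5 held none of the motifs.

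Within the transient outward current, the accessory subunit fell and the change of the pore subunits did not pass the test. Kcnip2 (chr19:45791839-45816061, minus strand, 11 merged exons) ranged from 76.5 to 132.8 FPKM in the control group, with a median of 111.1. Hypertensive-LVH samples ran from 51.6 to 115.7, and their median was 78.6. The ranges overlapped, but 11 of 12 hypertensive-LVH samples lay below the control median. Means were 111.6 ± 16.7 (SD, n = 12) and 83.1 ± 17.3 (SD, n = 12), a decrease of the mean of 25.6%. The log2 fold change was -0.43 ± 0.10 (SE), with an adjusted p of 0.00253 from limma. The lowest control value was that of control 2 and the lowest hypertensive-LVH value that of ANG II 6, the 2 samples with the highest atrial marker levels, described with Kcnj3. Without these 2 samples the log2 fold change of Kcnip2 was -0.42 and the adjusted p from limma 0.000488.

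Kcnd2 (chr6:21215503-21729805, plus strand) ranged from 2.61 to 7.09 FPKM in the control group, with a median of 4.53. Values ran from 2.21 to 5.77 FPKM in the hypertensive-LVH group around a median of 3.78. The groups overlapped over most of their range. The log2 fold change was -0.20 ± 0.13 (SE), and the limma adjusted p was 0.245. Kcnd3 (chr3:105452330-105674002, plus strand) had a control mean of 3.44 ± 0.37 FPKM and a hypertensive-LVH mean of 3.25 ± 0.43 FPKM (SD, n = 12 each). Its log2 fold change was -0.06 ± 0.06 (SE), with an adjusted p of 0.395 from limma. The exons of Kcnd3 overlap Kcnd3os on the opposite strand, and whether the libraries kept the strand is not given in the sources used here, so reads of the pair cannot be told apart.

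Among the other voltage-gated genes, Kcnh2 fell, whereas Kcna5 and Kcnq1 did not pass the test. Kcnh2 (chr5:24319589-24351604, minus strand, 16 merged exons) ranged from 27.6 to 41.9 FPKM in the control group, with a median of 35.1. Values ran from 23.5 to 37.4 FPKM in the hypertensive-LVH group around a median of 28.5. Most hypertensive-LVH samples were low, while ANG II 6 and ANG II 12 reached the upper control range. Means were 35.5 ± 4.09 and 29.3 ± 4.75 FPKM (SD, n = 12 each), a decrease of the mean of 17.4%. Kcnh2 changed by -0.28 ± 0.08 (SE) on the log2 scale, with a limma adjusted p of 0.008.

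Kcna5 (chr6:126532551-126535412, minus strand, 1 exon) had means of 14.8 ± 2.29 FPKM in the control group and 14.3 ± 3.22 FPKM in the hypertensive-LVH group (SD, n = 12 each). Its log2 fold change was -0.07 ± 0.11 (SE), and the adjusted p from limma was 0.65. Kcnq1 (chr7:143106362-143427042, plus strand) had the most even levels of the voltage-gated genes, with 22.96 to 30.8 FPKM in the control group and 22.4 to 29.3 FPKM in the hypertensive-LVH group. The log2 fold change was -0.02 ± 0.05 (SE), and the adjusted p from limma was 0.762. The exons of Kcnq1 overlap the antisense RNA Kcnq1ot1.

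All 3 inward rectifiers fell in the test, but with a term for the set of samples only Kcnj11 of the 3 was called. Limma adjusted p values with this term were 7.49e-05 for Kcnj11, 0.0684 for Kcnj2 and 0.0606 for Kcnj3, and the folds were unchanged. Kcnj11 (chr7:46093953-46100764, minus strand) ranged from 82.8 to 95.7 FPKM in the control group, with a median of 92.2. Hypertensive-LVH samples ran from 65.3 to 82.4 FPKM, and their median was 76.4. In the deposited values every hypertensive-LVH sample lay below every control sample, which was the case for 0.485% of all genes tested. Before the adjustment this did not hold in samples 1 to 3. There ANG II 3 lay 7.44 FPKM above the lowest sample of the set, and controls 1 and 2 lay 3.75 and 6.72 FPKM above it. Means were 90.9 ± 3.85 and 75.1 ± 5.38 FPKM (SD, n = 12 each), a decrease of the mean of 17.3%. On the log2 scale the change was -0.27 ± 0.04 (SE), with a limma adjusted p of 1.14e-05. A permutation test of the FPKM difference gave a p of 2e-05, the smallest that 100000 resamples can give.

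Kcnj2 (chr11:111066164-111076821, plus strand, 2 exons) ranged from 6.68 to 9.998 FPKM in the control group, with a median of 7.42. Values ran from 4.54 to 8.64 FPKM in the hypertensive-LVH group around a median of 6.72. The ranges overlapped. Means were 7.94 ± 1.20 and 6.67 ± 1.32 FPKM (SD, n = 12 each). The log2 fold change was -0.23 ± 0.09 (SE), with an adjusted p of 0.0448 from limma. The call was lost in 13 of the 24 fits that left out 1 sample, namely without control 1, 4, 5, 7, 8 or 12 and without ANG II 2, 3, 4, 5, 7, 9 or 10, with adjusted p up to 0.0768. Direction was lower in each of these fits.

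Kcnj3 (chr2:55435970-55598145, plus strand) ranged from 10.4 to 47.3 FPKM in the control group, with a median of 17.3. Values ran from 6.93 to 21.96 FPKM in the hypertensive-LVH group around a median of 13.4. The control range was set by control 2, since the next control sample was at 22.7 FPKM. Its log2 fold change was -0.505 ± 0.187 (SE), with an adjusted p of 0.0402 from limma. The call was lost in 11 of the 24 fits that left out 1 sample, namely without control 1, 2, 4, 7, 8 or 9 and without ANG II 2, 3, 5, 7 or 9. Without control 2 the log2 fold change was -0.38 and the limma adjusted p 0.0543, and the control mean moved from 19.1 ± 9.50 (SD, n = 12) to 16.5 ± 3.48 FPKM (SD, n = 11). The exons of Kcnj3 overlap Gm26794 on the opposite strand.

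Atrial marker genes moved with Kcnj3 in single samples. The summed FPKM of the 5 atrial markers in the table was 3238 in control 2 and at most 378.8 in the other control samples. It was 2392 in ANG II 6 and at most 656.1 in the other hypertensive-LVH samples. Both of these maxima come from another set, adjusted separately. Controls 1 and 3, of the same set as control 2, were at 6.52 and 3.93 FPKM. ANG II 4 and 5, of the same set as ANG II 6, were at 386.3 and 11.8 FPKM. Control 2 and ANG II 6 also held the highest Kcnj3 value of their groups. Without both samples the log2 fold change of Kcnj3 was -0.45, with an adjusted p of 0.0182 from limma, and the same number of the 9 genes, 5, was called. The part of atrial tissue in the Kcnj3 values was not tested.

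**Figure D2:**
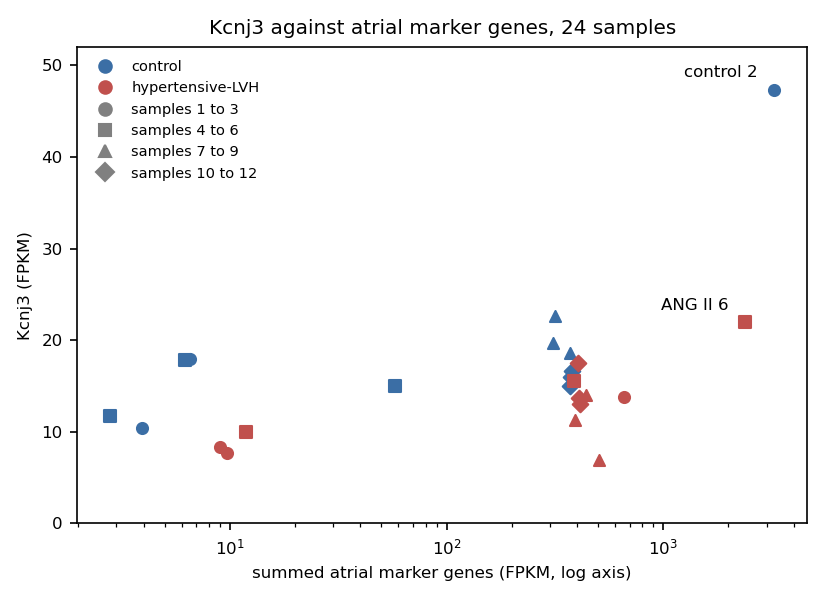
Kcnj3 in FPKM (vertical axis) against the summed FPKM of 5 atrial marker genes (horizontal axis, log scale) in 24 samples, with colors for the groups and marker shapes for the 4 sets. Control 2 (3238 and 47.3 FPKM) and ANG II 6 (2392 and 21.96 FPKM) lie to the right of all other samples. Positions on both axes are comparable only within a set.

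The level of cardiomyocyte genes also moved with the groups. All 10 cardiomyocyte genes listed were present in the table. Their summed FPKM ranged from 40620 to 55540 in the control group and from 32420 to 45860 in the hypertensive-LVH group. Of these 10 genes, 5 were called lower and 1 higher, beside 12.6% and 20.9% of all genes tested. All 7 macrophage markers and 4 of 7 fibroblast markers were called higher. Of 6 endothelial markers, 1 was called higher and 1 lower, and of 6 mural markers 2 were called higher. The summed macrophage markers ranged from 135.9 to 284.3 FPKM in the control group and from 197.3 to 543.4 FPKM in the hypertensive-LVH group. The summed fibroblast markers ranged from 128.6 to 964.1 FPKM and from 669.9 to 2529 FPKM. Samples 4 to 6 differed the most, with controls 4, 5 and 6 at 207.0, 228.4 and 128.6 FPKM and ANG II 4, 5 and 6 at 1580, 1901 and 2529. The lowest of the other controls was at 795.5 FPKM, and outside samples 4 to 6 the groups overlapped. In these bulk samples, fewer cells of a type and less RNA per cell cannot be told apart.

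Set against the mean log2 level of the cardiomyocyte markers of the same sample, 1 of the 9 genes was called lower and 1 higher, while 3.28% of all genes tested were called lower and 69.7% higher. Without this reference, 20.9% were called higher. Kcnip2 stayed lower, with a log2 difference of -0.22 and a limma adjusted p of 0.0165. Kcnq1 was higher, with 0.19 and an adjusted p of 0.0223 from limma. Kcnj11 was at -0.06 (adjusted p of 0.16, limma), Kcnh2 at -0.06 (0.558), Kcnj2 at -0.02 (0.897) and Kcnj3 at -0.29 (0.208). On this scale the median of all genes tested moved from 0.05 to 0.27, so values are relative to a reference that fell in the hypertensive-LVH group.

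Because the values had been scaled by set, each comparison was also made within sets. For all 9 genes the spacing of the values gave the scale that had been applied and the group difference kept out of it. From these followed the differences between samples of the same set, in FPKM before the adjustment. The level of a set as a whole cannot be recovered this way. Kcnip2 was lower by this measure in 4 of 4 sets, with differences (ANG II minus control) of -11.6, -62.6, -25.5 and -13.0 FPKM. Samples 4 to 6 had the largest of these, and the mean over sets was -28.2 ± 8.09 FPKM (SE). This SE, like those of the other genes before the adjustment, comes from the spread of samples within sets. It leaves out the spread between sets. The exact permutation test within sets gave a p of 0.00637. Without samples 4 to 6 the log2 fold change of the deposited values was -0.25 and the adjusted p from limma 0.0753.

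Kcnj11 was lower in 4 of 4 sets, with differences of -6.59, -14.4, -19.4 and -18.7 FPKM before the adjustment. The mean was -14.8 ± 1.94 FPKM (SE), and the exact permutation p was 3.7e-05. In samples 1 to 3, 2 of 3 hypertensive-LVH samples lay below all 3 controls before the adjustment, and in each other set all 3 did. Kcnh2 was lower in 4 of 4 sets, with -10.1, -3.48, -4.98 and -5.99 FPKM. Its mean was -6.13 ± 2.39 FPKM (SE), with an exact permutation p of 0.0154. Without samples 1 to 3 the log2 fold change of Kcnh2 was -0.23, with a limma adjusted p of 0.0787.

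Kcnj2 was lower in 4 of 4 sets, with -0.81, -1.09, -3.11 and -0.34 FPKM, and samples 7 to 9 differed the most. The mean was -1.34 ± 0.615 FPKM (SE), with an exact permutation p of 0.0438. Kcnj3 was lower in 4 of 4 sets before the adjustment, with -21.3, -0.82, -8.86 and -3.05 FPKM, while the deposited values put samples 4 to 6 higher, by 0.94 FPKM. The first of these differences rests on control 2, which lay 53.5 FPKM above control 1 and 67.2 FPKM above control 3. With control 2 the mean over sets was -8.51 ± 5.28 FPKM (SE) and the exact permutation p 0.0276. Without it the mean was -3.48 FPKM and the exact permutation p 0.0814, and the difference in samples 1 to 3 was -1.19 FPKM.

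The 4 genes that did not pass the test had no common direction over the sets. Kcnd2 was higher in samples 1 to 3 and 10 to 12, by 0.81 and 0.64 FPKM, and lower in the other sets, by -1.50 and -2.26 FPKM. Kcna5 differed by 4.44 FPKM in samples 1 to 3 and by -2.55, -0.56 and -3.02 FPKM in the other sets. Kcnd3 was higher in 1 set and Kcnq1 in 2. Exact permutation p values within sets were 0.351 for Kcnd2, 0.396 for Kcnd3, 0.769 for Kcna5 and 0.639 for Kcnq1. A test of whether the group difference itself varied between sets called 0 of the 9 genes in limma, with 7.49% of all genes tested called. The lowest adjusted p of the 9 was that of Kcnip2, 0.123.

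**Figure D3:**
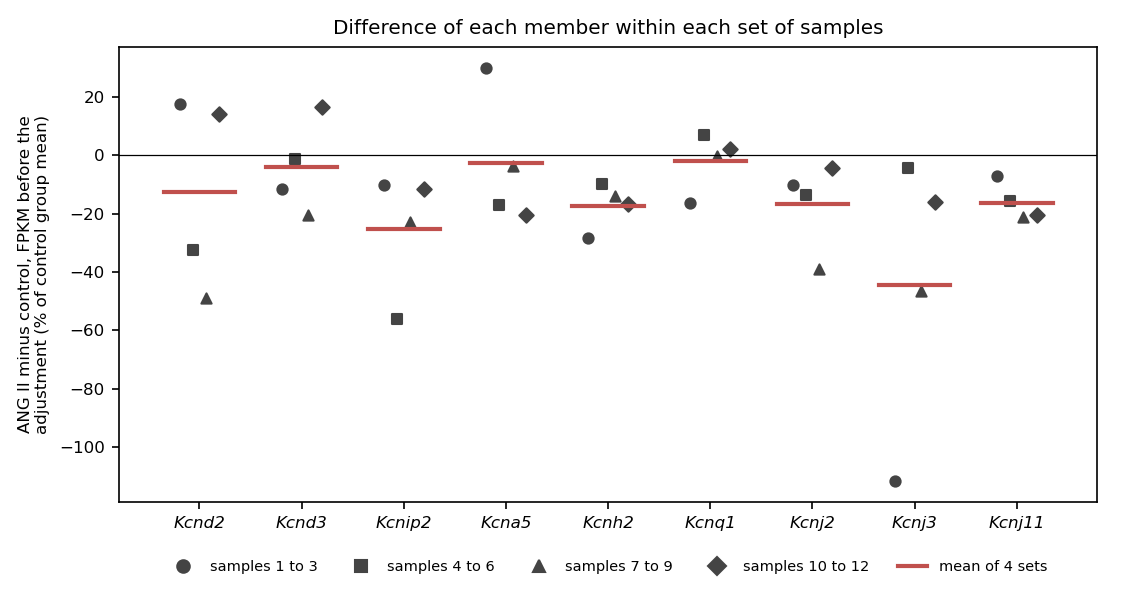
Difference between hypertensive-LVH and control means within each set, in FPKM before the adjustment, as a percentage of the control group mean (vertical axis), for the 9 genes, with red lines for the mean of the 4 sets. All 4 sets lie below 0 for Kcnip2, Kcnh2, Kcnj2, Kcnj3 and Kcnj11, and the sets lie on both sides of 0 for the other 4 genes.

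Channel partners were compared as log2 ratios within each sample, in 6 pairs, with permutation tests adjusted over the 6. The ratio of Kcnq1 to Kcne1, its accessory subunit in the slow delayed rectifier, fell from 2.80 ± 0.45 to 1.99 ± 0.39 on the log2 scale (SD, n = 12 each). The difference was -0.80 ± 0.17 (SE), with an adjusted permutation p of 0.00084, and 0 of 12 hypertensive-LVH samples lay above the control median. Kcne1 itself carried this change, with 3.09 ± 1.15 FPKM in the control group and 5.99 ± 2.07 FPKM in the hypertensive-LVH group. Without samples 4 to 6 the difference of the Kcnq1 to Kcne1 ratio was -0.54 and the adjusted permutation p 0.0267. The differences of Kcne1 before the adjustment by set could not be recovered. The ratio of Kcnd3 to Kcnip2 rose by 0.37 ± 0.13 (SE) on the log2 scale, with an adjusted permutation p of 0.0333. It was higher in 3 of 4 sets, and without samples 4 to 6 the difference was 0.17 and the adjusted permutation p 0.653. For Kcnd2 to Kcnip2 the difference was 0.24 ± 0.16 (SE, adjusted permutation p of 0.269).

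The other 3 ratios did not pass the test. The ratio of Kcnd2 to Kcnd3 differed by -0.13 ± 0.12 (SE) and that of Kcnj11 to Abcc9, which encodes the sulfonylurea receptor of the channel, by 0.14 ± 0.10 (SE). Kcnj3 to Kcnj5, the partner subunit of the acetylcholine-activated channel, differed by -0.03 ± 0.17 (SE). Adjusted permutation p values were 0.318, 0.269 and 0.854. Within groups, 12 correlations between partners were computed over 12 samples each, and none passed the adjusted permutation test. The largest was between Kcnd2 and Kcnd3 in the hypertensive-LVH group, with Pearson's r of 0.666 (permutation p of 0.0171, adjusted 0.206) and Spearman's rho of 0.72 (permutation p of 0.0103, adjusted 0.124). With the 2 samples of most distant Kcnd2 left out, r was 0.304, so r depended on those samples. With the mean of each set removed first, r was 0.677, and 0.606 without the 2 farthest samples, and the adjusted permutation p was 0.229.

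Among 89 other potassium channel genes listed, 62 were in the table, 56 were tested and 19 were called, 7 higher and 12 lower. The share called was 33.9%, near the 33.5% of all genes. With quantile normalization between samples, 5 were called higher and 14 lower, beside 13.7% and 20.9% of all genes. Their median log2 fold change was 0.02. At a mean of at least 5 FPKM, a split made after the values were seen, 8 of 10 genes were called lower and 0 higher, while 17.7% of all genes at that level were called lower. Below that mean, 4 of 46 were called lower and 7 higher, beside 5.77% and 19.9% of all genes at that level.

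The 5 called genes with the largest increase were Kcne1, Kcne4, Kcnj15, Kcne3 and Kcnn4. Kcne1, Kcne3 and Kcne4 encode small accessory subunits of voltage-gated channels, and their log2 fold changes were 0.78 ± 0.17, 0.38 ± 0.08 and 0.68 ± 0.15 (SE), with limma adjusted p of 0.00135, 0.0011 and 0.00113. Without samples 4 to 6 the log2 fold change was 0.48 for Kcne1 and 0.35 for Kcne4, and without samples 7 to 9 it was 0.23 for Kcne3, with each of them still called. Kcnn4, a calcium-activated channel known from immune cells and fibroblasts, rose by 0.37 ± 0.10 (SE), with a limma adjusted p of 0.00616, and from 0.395 to 0.836 FPKM in the group means. Without samples 4 to 6 its log2 fold change was 0.26 and the adjusted p from limma 0.0994. Kcnj15, an inward rectifier, rose by 0.50 ± 0.19 (SE), with a limma adjusted p of 0.0426, a call that 10 of 24 fits leaving out 1 sample did not keep. Its deposited values in controls 4 and 6 were negative, at -0.085 and -0.165 FPKM, and were set to 0 for the fit. The fibroblast and macrophage markers rose with the same groups, and their part in the values of these 5 genes was not tested.

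The 5 called genes with the largest decrease were Kcnv2, Kcnj8, Kcnn2, Kcnj5 and Abcc9. Kcnj8 and Abcc9 encode the pore and the receptor of ATP-sensitive channels, so that with Kcnj11 both pore genes and this receptor gene fell. Kcnj8 went from 20.0 ± 2.85 to 13.1 ± 2.42 FPKM (SD, n = 12 each), a log2 fold change of -0.58 ± 0.09 (SE) with a limma adjusted p of 4.99e-05. Abcc9 went from 54.2 ± 8.60 to 40.8 ± 8.61 FPKM (SD, n = 12 each), with -0.41 ± 0.10 (SE) and a limma adjusted p of 0.00314. Before the adjustment by set, Abcc9 was lower in 3 of 4 sets (exact permutation p of 0.037). Its call was lost without samples 7 to 9 (-0.31, adjusted p of 0.0532, limma) and relative to cardiomyocyte markers (-0.20, adjusted p of 0.0641, limma).

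Kcnj5 fell alongside its partner Kcnj3, from 18.0 ± 2.61 to 12.8 ± 2.32 FPKM (SD, n = 12 each). Its log2 fold change was -0.47 ± 0.09 (SE), with a limma adjusted p of 0.000203, and no fit leaving out 1 sample lost the call. Control 2 and ANG II 6 held the highest Kcnj5 value of their groups too, 23.9 and 18.1 FPKM. Without both samples the log2 fold change of Kcnj5 was -0.48, with an adjusted p of 3.5e-05 from limma. The part of atrial tissue in the Kcnj5 values was not tested. Kcnv2, a modifier subunit that forms no channel of its own, had a log2 fold change of -0.64 ± 0.11 (SE) and Kcnn2, a calcium-activated channel, -0.58 ± 0.11 (SE). Limma adjusted p values were 7.64e-05 and 0.000422. Of the further partners, Kcnj12, an inward rectifier that joins Kcnj2, was at -0.23 ± 0.07 (SE, adjusted p of 0.0111, limma). Its call was lost without samples 10 to 12 (-0.14, adjusted p of 0.166, limma), with the replicate block (0.0535) and relative to cardiomyocyte markers (-0.01, adjusted p of 0.893, limma). Kcna4, which carries a slow transient outward current, was at 0.02 ± 0.05 (SE, adjusted p of 0.765, limma).

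**Figure D4:**
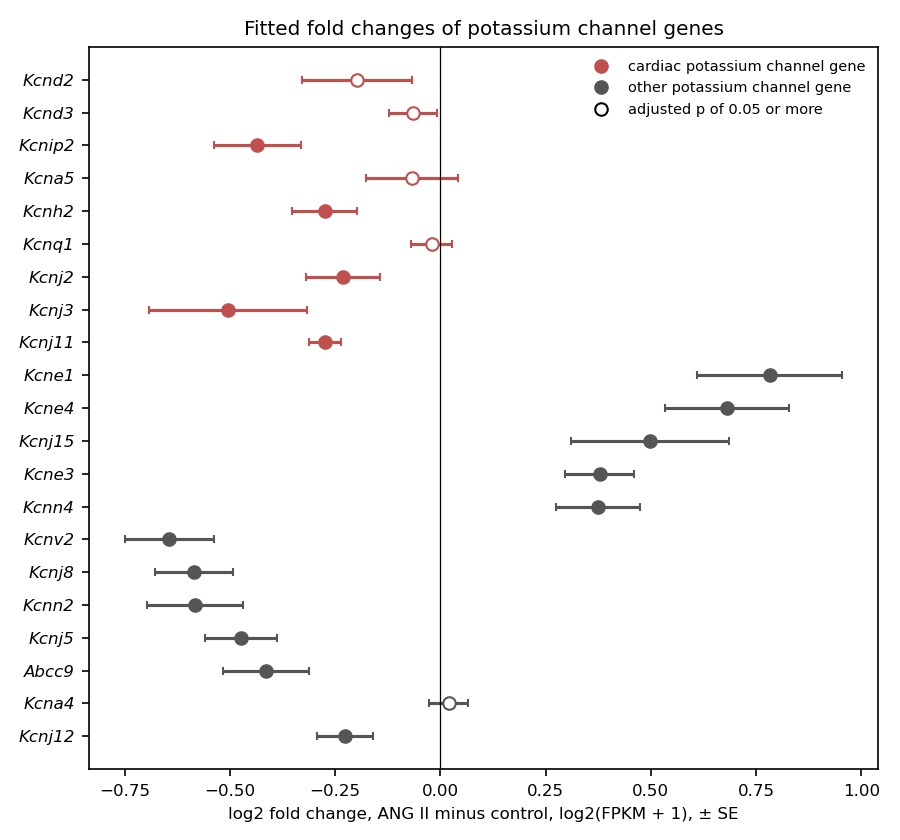
Log2 fold changes (ANG II minus control, log2(FPKM + 1), horizontal axis, bars of 1 SE) of the 9 cardiac potassium channel genes in red and of 12 other potassium channel genes in grey, with open points where the adjusted p was 0.05 or more. The red points all lie below 0, from -0.505 for Kcnj3 to -0.02 for Kcnq1, while Kcne1, Kcne4, Kcnj15, Kcne3 and Kcnn4 lie above 0.

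Likeness of pattern was measured as Pearson's r over 24 samples after the group means were removed, against 14025 other genes, and is given as a description. The samples of a set share their adjustment. The nearest genes were Impa2 (r = 0.903) for Kcnip2, Pex13 (0.9) and Maob (0.859) for Kcnh2, and Ndufa9 (0.826) and Hopx (0.798) for Kcnj11. Kcnj2 was nearest to Ubxn7 (0.854) and Rictor (0.852), and Kcnj3 to Psd3 (0.884) and Tmx4 (0.875). For the genes that did not pass the test, they were Agtpbp1 (0.874) and Nadk2 (0.861) for Kcnd2, Dock4 (0.847) and Nrip1 (0.814) for Kcnd3, Mmachc (0.825) and Rhot2 (0.801) for Kcna5, and 1110032A03Rik (0.743) and Mamdc2 (0.743) for Kcnq1. Between the 9 genes themselves, r by the same measure was highest for Kcnd2 with Kcnj2 (0.719) and lowest for Kcna5 with Kcnh2 (-0.715).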

How the data were processed

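RNA of left ventricles, selected with oligo(dT), was sequenced by the authors, who deposited 1 FPKM value per gene and sample. HISAT, Bowtie2 and RSEM are named in the submitters' processing notes, and the genome build is not given in the sources used here. The deposited FPKM values are not plain FPKM, since 2741 of them (0.766%) are negative, and the spacing of the values shows a shift and a scale for each gene in 4 sets of samples, found from exact ties. The authors' methods name no such step. Read depth is unknown. The values of a sample summed to between 460715 and 567727. Gene positions are from GENCODE vM21 (GRCm38) and promoters from RefSeq (GRCm38.p6).

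Negative values were set to 0, log2(FPKM + 1) was taken, and the 14026 genes whose mean reached 0.1 FPKM were fitted in R 4.3.3 with limma 3.58.1. A fold change on this scale understates the change of low genes. Single values were tested with scipy 1.17.1 and numpy 2.4.6 (Python 3.11.15, pandas 2.3.3), by two-sided permutation (100000 resamples) or exactly within sets (160000 relabelings, 80000 without 1 sample). Values before the adjustment were recovered from steps of 0.01 FPKM. The limma fit and this recovery were tested on simulated data, and the permutation tests were not. The simulation for limma held no sets, so it does not bear on the adjustment by set. The members and the gene lists were chosen with earlier results of these data known. Named are all members, the 5 other potassium channel genes with the largest called increase and the 5 with the largest called decrease, the partner genes, and the 2 genes most like each member. A few items named by this rule are not reported here. Control 2 and ANG II 6 were left out in an alternative chosen after the data were seen. Alternatives changed the pseudocount, filter, scaling, test, block, set term, the samples left out and the reference to cardiomyocyte markers.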

Additional observations from a re-analysis of the deposited data

Results flagged for a closer look

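Kcne4 and Kcnj15 were picked out because their group difference varied between the 4 sets of samples in limma's test of the interaction. Its adjusted p was 0.00406 for Kcne4 and 0.00166 for Kcnj15, and 7.49% of all genes tested passed this test. In FPKM before the adjustment, Kcne4 was higher in the hypertensive-LVH group by 4.62 in samples 4 to 6 and by 0.18, 0.78 and 1.73 in samples 1 to 3, 7 to 9 and 10 to 12. Kcnj15 was higher by 2.89 in samples 4 to 6 and by 0.13, 0.51 and 0.25 elsewhere. When samples 4 to 6 were left out, Kcnj15 had a log2 fold change of 0.05 with an adjusted p of 0.791 from limma.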

How the results depend on the processing

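Of the 9 cardiac potassium channel genes, 5 were called, and 3 to 5 in the fits that left out 1 sample. The count was 3 with the replicate block, 3 with a term for the set of samples, 2 without samples 1 to 3, 3 without samples 4 to 6, 3 without samples 7 to 9 and 2 relative to cardiomyocyte markers. Calls over the whole table moved too. Of the 14026 genes tested, 4697 were called with all samples and 4039 to 5159 in the fits that left out 1 sample. Without samples 1 to 3, 4 to 6 and 7 to 9, 4162, 2802 and 3798 genes were called. Kcnj2 lost its call with the block, with the set term, with a Wilcoxon rank-sum test and without samples 1 to 3, 4 to 6 or 7 to 9. Kcnj3 lost its call with the block, with the set term and without samples 1 to 3, 7 to 9 or 10 to 12. With the block and the set term the folds were the same, while without samples 7 to 9 Kcnj2 was at -0.13, and without samples 1 to 3 Kcnj3 was at -0.33. For the other potassium channel genes, 19 were called, 14 to 20 in the fits leaving out 1 sample, 12 with the replicate block and 47 relative to cardiomyocyte markers, 42 of them higher. Of all genes tested, 20.1% were called with the block and 73.0% relative to cardiomyocyte markers (69.7% higher). Whether replicate numbers pair the samples cannot be read from these values, and the block is a check only. Same-numbered samples had correlations of their deviations from -0.557 to -0.00109, but they share a set, and the adjustment by set itself lowers such correlations.

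Some directions reversed. Kcnd2 was at 0.0045 and Kcnd3 at 0.013 (log2 fold change) without samples 7 to 9, Kcna5 at 0.0195 without samples 10 to 12, and Kcnq1 at 0.0217 without samples 1 to 3. Relative to cardiomyocyte markers, Kcnd2 was at 0.0168, Kcnd3 at 0.15, Kcna5 at 0.15 and Kcnq1 at 0.19. Kcna4 was at -0.057 with quantile normalization, -0.0302 without samples 7 to 9, and between -0.00665 and 0.0369 in the fits leaving out 1 sample. With quantile normalization Kcnd3 was called, at -0.18. The ratio of Kcnj3 to Kcnj5 was 0.12 without samples 1 to 3, 0.0521 without samples 7 to 9 and 0.0279 without control 2 and ANG II 6. Kcnd2 to Kcnip2 was 0.48 and called without samples 7 to 9. Kcnd3 to Kcnip2 lost its call with a pseudocount of 0.1 (0.36), without samples 4 to 6 (0.17) and without samples 10 to 12 (0.37). The causes were not tested. Of 351 refits of single members, 301 kept direction and call. Depth is unknown, so no counting error can be given.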
